A study of Mus musculus with 8 samples.

Results

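The genes described here are 10 genes of the endothelium, the cell layer that lines blood vessels, measured in laser-cut neural tube tissue of mouse embryos. They are Kdr, Sox7, Sox18, Egfl7, Cdh5, Pecam1, Tek, Esam, Eng and Ramp2, taken by symbol from 26608 genes listed in the files, and all 10 were listed. All embryos were of the FVB strain at embryonic day 8.5 and came from diabetic dams; a group from non-diabetic dams was not analysed here, so maternal diabetes is shared by every library. Of 8 libraries, 4 came from protrusions cut away from the open neural plate, of which 1 (protrusion 1) is labelled separated and 3 (protrusions 2, 3 and 4) attached. The other 4 came from open neural tube just anterior to the first closure site and are called open neural tubes 9, 10, 13 and 14. Gene expression was read by SAGE, which counts 1 short tag near the 3′ end of each transcript. Levels are given as CPM, a gene's count scaled by the total of its library. A SAGE level does not grow with transcript length and can be set beside that of another gene.

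Endothelial cells arise from mesoderm. Signals through Kdr, the main receptor for VEGF, and transcription factors of the SoxF group start their programme, and cadherin and immunoglobulin-type adhesion proteins then join the cells to each other. At the stage when the neural folds close, the neural plate has no vessels of its own: a plexus forms in the mesenchyme beside it and sends sprouts inward later. In tissue pieces such as these, fewer endothelial cells and less RNA per endothelial cell cannot be told apart.

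The tags behind the key members are shown first, since a SAGE count can only be read through its tag. They are predicted here from GENCODE M21 transcripts (GRCm38) as the 26 bases from the last CATG, the site cut by the anchoring enzyme NlaIII of such kits, and the tags actually counted were not analysed here. Capitals mark the CATG site. Sox7 and Tek had the largest fitted differences in attached protrusions, Egfl7 was the most abundant member, Sox18 is the SoxF partner of Sox7, and Kdr is the classical marker that was nearly undetected.
Sox7: CATGgaacagttatgaaattgatttt
Sox18: CATGtggccaagtggcagagttgcct
Tek: CATGtattgtaaaattttgtagtttt
Egfl7: CATGgggagtggggtcttgtgtgact
Kdr: CATGgaatatgcagctatatacccta
Of the 10 members, 9 had a full-length predicted tag, and all 9 tags, that of Kdr included, were found beside a CATG in transcripts of no other gene. In the main Esam transcript the last CATG lies 12 bases from the end, too close for a full tag. Sox7, Sox18 and Kdr each had 1 such tag over their coding transcripts in the basic annotation, whereas Tek and Egfl7 had 2. Sox7 lies on chromosome 14, Tek on chromosome 4, Kdr on chromosome 5, and Sox18 and Egfl7 both lie on chromosome 2.

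Promoter sequence was on hand for 4 of the 10 members (Egfl7, Eng, Kdr and Tek), from RefSeq on GRCm38.p6. The windows of Tek and Egfl7 are shown. Both genes had their highest level in open neural tube 13, but so did 8 of the 10 members in all, Eng among them. Each window holds the 250 bases upstream of the annotated start, on the + strand. Capitals mark matches to 3 short motifs or their reverse complements. The motif searched for ETS factors was AGGAAG. The motif searched for SOX factors was ACAAAG. For GATA factors, which bind in blood and endothelial genes, it was AGATAA. Matches were searched on both strands and are a description of letters only.
Tek, chr4:94739039-94739288: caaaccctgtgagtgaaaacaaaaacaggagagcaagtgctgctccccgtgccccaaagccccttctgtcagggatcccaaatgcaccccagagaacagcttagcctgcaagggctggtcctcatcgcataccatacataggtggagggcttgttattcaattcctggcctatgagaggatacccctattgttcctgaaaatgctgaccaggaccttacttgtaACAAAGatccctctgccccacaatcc
Egfl7, first of 3 starts, chr2:26580833-26581082: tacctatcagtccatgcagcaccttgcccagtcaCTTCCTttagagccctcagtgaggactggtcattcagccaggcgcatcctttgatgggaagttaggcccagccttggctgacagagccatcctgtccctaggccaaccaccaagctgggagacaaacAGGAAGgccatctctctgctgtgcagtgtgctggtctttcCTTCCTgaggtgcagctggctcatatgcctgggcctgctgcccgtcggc
The Tek window had 1 SOX match and 0 ETS matches, and this Egfl7 window had 3 ETS matches and 0 SOX matches. The windows of the other Egfl7 starts differed: the second had 1 ETS match and 0 SOX matches, and the third had 0 ETS matches and 1 SOX match, the same counts as Tek. The Eng window had 2 ETS matches and 1 SOX match, and the Kdr window had 0 of any of the 3 motifs. Among 32851 promoter windows of this length, 29.5% held an ETS match, 16.5% a SOX match and 9.99% a GATA match.

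Libraries held 6112477 to 11430602 reads in protrusions and 5668054 to 16655583 in open neural tubes, so that 3 reads, the level taken here as detectable, corresponded to 0.180 to 0.529 CPM. After thinning all libraries to 5668054 reads, 14360 to 15559 genes had a read in protrusions and 9920 to 11244 in open neural tubes, so a 0 in open neural tube says less about absence. A pair of libraries stood apart from their groups. The separated protrusion had 179 CPM summed over 11 genes of the primitive streak and presomitic mesoderm, against 1300 to 1573 CPM in the attached protrusions, and it was below all 3 of them in 10 of the 10 genes with reads. Open neural tube 13 had 103 CPM summed over 13 neural plate genes, against 802 to 1464 CPM in the other open neural tubes, and was below all 3 of them in 9 of the 12 genes with reads. The shares of all tested genes in these orders were not counted, so both counts describe the listed genes only. Because of these sums, fitted values of the members are also given without each of the libraries. The labels do not say whether libraries of a group come from different embryos, and protrusions 1 and 2 begin with the same code in their titles, so each p-value below is set against the spread of these libraries alone, part of which may be technical.

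Transcripts of the 10 genes were scarce everywhere and very uneven, and whether all came from endothelial cells was not tested. Summed over the 10 genes, they made up 159 CPM in the separated protrusion, 44.3, 50.4 and 44.2 CPM in attached protrusions 2, 3 and 4, and 79.3, 107, 477 and 171 CPM in open neural tubes 9, 10, 13 and 14. The 3 attached protrusions lay below every open neural tube, while the separated protrusion lay within their range. Egfl7 alone made up 80.9% to 86.3% of this sum in the attached protrusions, 55.6% in the separated protrusion and 30.0% to 62.9% in open neural tubes. Without Egfl7 the sum was 6.73 to 8.46 CPM in the attached protrusions, 70.5 CPM in the separated protrusion and 29.4 to 334 CPM in open neural tubes.

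**Figure D1:**
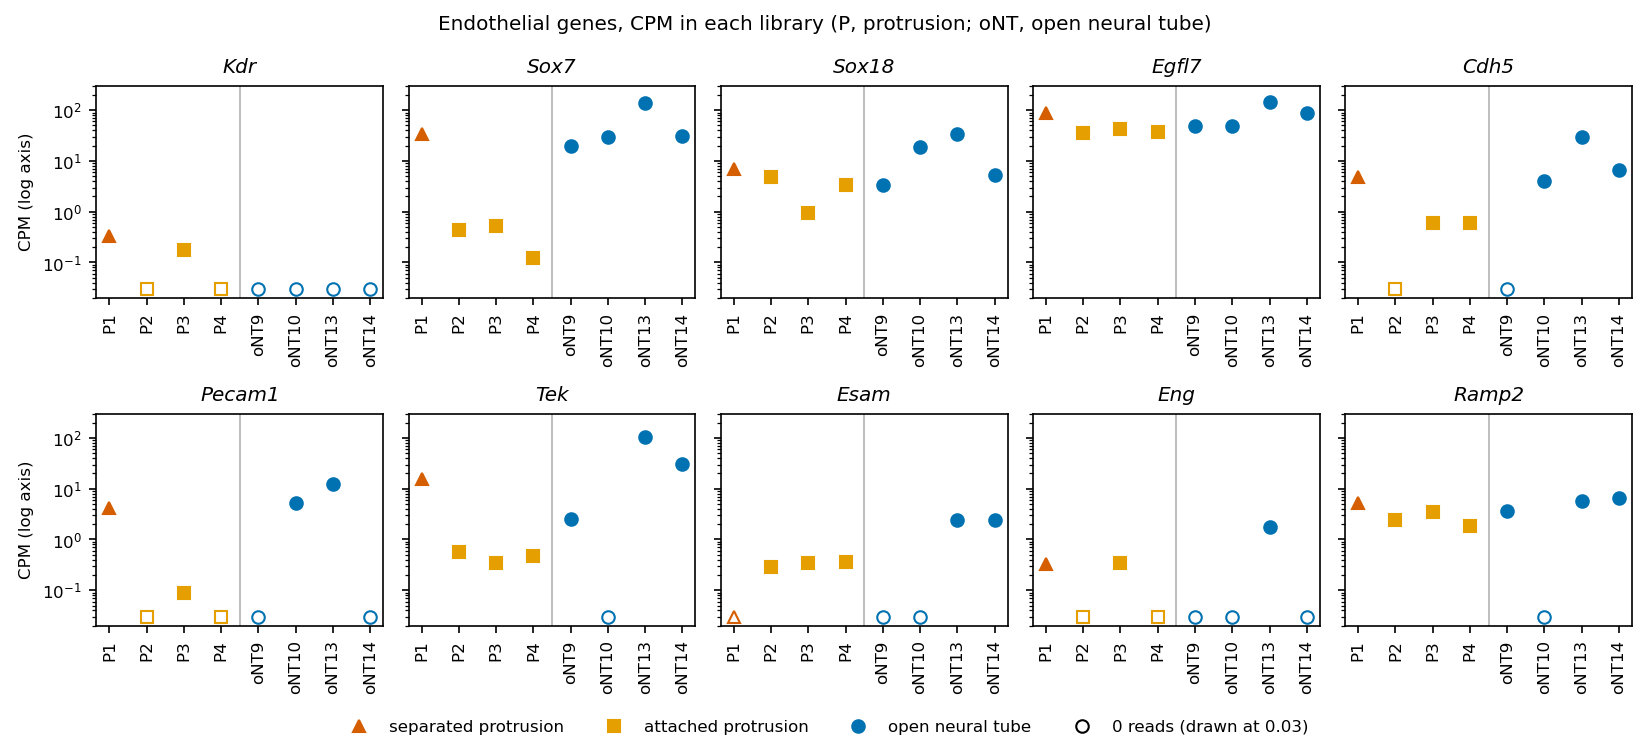
CPM (log axis) of each of the 10 endothelial genes in every library, with 1 point a library: triangle, separated protrusion; squares, attached protrusions; circles, open neural tubes; open symbols at the bottom, 0 reads. Sox7 sits at 0.120 to 0.525 CPM in the attached protrusions and at 19.8 CPM or more in the other 5 libraries, whereas Egfl7 is well detected in all 8.

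The transcription factors Sox7 and Sox18 belong to the SoxF group, which acts early in endothelial specification; Sox7 is also expressed in extraembryonic endoderm. Sox7 showed the widest gap of all members. It stood at 33.4 CPM in the separated protrusion (204 reads), at 0.430, 0.525 and 0.120 CPM in attached protrusions 2, 3 and 4 (3, 6 and 1 reads), and at 19.8, 29.6, 142 and 31.4 CPM in open neural tubes 9, 10, 13 and 14 (201, 168, 2360 and 263 reads). The attached protrusions were all far below the open neural tubes, and the separated protrusion was above 3 of the 4 open neural tubes. Sox18 stood at 7.03 CPM in the separated protrusion, at 4.73, 0.962 and 3.37 CPM in attached protrusions 2, 3 and 4, and at 3.36, 18.9, 34.5 and 5.25 CPM in open neural tubes 9, 10, 13 and 14. Here the groups overlapped, since open neural tube 9 lay within the range of the attached protrusions.

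Among receptors, Tek, the Tie2 receptor for angiopoietins that stabilizes young vessels, followed Sox7 in part. It had 15.2 CPM in the separated protrusion, 0.574, 0.350 and 0.481 CPM in attached protrusions 2, 3 and 4 (4 reads in each), and 2.57, 0, 106 and 30.1 CPM in open neural tubes 9, 10, 13 and 14. Attached protrusions and open neural tubes overlapped only through open neural tube 10, where 0 reads allow up to 0.529 CPM. Kdr, the VEGF receptor that marks endothelium and its precursors, was nearly undetected: 2 reads in the separated protrusion, 0, 2 and 0 reads in the attached protrusions and 0 reads in all 4 open neural tubes, of which the deepest allows up to 0.180 CPM. The label of these genes as endothelial thus rests on the other members and not on Kdr.

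Eng (endoglin), a co-receptor for BMP9 and BMP10, was also scarce. It had 2 reads in the separated protrusion, 0, 4 and 0 reads in attached protrusions 2, 3 and 4, and 0, 0, 29 and 0 reads in open neural tubes 9, 10, 13 and 14, so that it passed 1 CPM in open neural tube 13 alone (1.74 CPM). Ramp2, the partner that turns Calcrl into an adrenomedullin receptor, had groups that overlapped. Its level was 5.24 CPM in the separated protrusion, 2.44, 3.5 and 1.80 CPM in attached protrusions 2, 3 and 4, and 3.65, 0, 5.70 and 6.57 CPM in open neural tubes 9, 10, 13 and 14.

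Egfl7, a secreted protein of endothelial cells, was the most abundant member in all 8 libraries, although Sox7 came close to it in open neural tube 13. It stood at 88.2 CPM in the separated protrusion, at 35.8, 43.5 and 37.5 CPM in attached protrusions 2, 3 and 4, and at 49.9, 48.7, 143 and 89.1 CPM in open neural tubes 9, 10, 13 and 14. All 3 attached protrusions were below all 4 open neural tubes, by a narrow margin, and the separated protrusion was next to open neural tube 14.

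The junction proteins were low. Cdh5, the VE-cadherin of endothelial adherens junctions, had 4.74 CPM in the separated protrusion, 0, 0.612 and 0.601 CPM in attached protrusions 2, 3 and 4, and 0, 4.06, 29.4 and 6.69 CPM in open neural tubes 9, 10, 13 and 14. Pecam1, an adhesion molecule of endothelium and blood cells, had 4.25 CPM in the separated protrusion, 0, 0.0875 and 0 CPM in the attached protrusions, and 0, 5.29, 12.3 and 0 CPM in open neural tubes 9, 10, 13 and 14. Both were below 1 CPM in all attached protrusions, but also at 0 in open neural tube 9. Esam, an immunoglobulin-type protein of tight junctions, had 0 reads in the separated protrusion, 2, 4 and 3 reads in attached protrusions 2, 3 and 4, and 0, 0, 40 and 20 reads in open neural tubes 9, 10, 13 and 14. Its level did not exceed 2.40 CPM in any library, and its missing full tag limits what a low count can say.

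Protrusions were compared with open neural tubes with edgeR's quasi-likelihood test over all genes. In the comparison of all 8 libraries, 0 of the 10 members passed a Benjamini-Hochberg adjusted p of 0.05, where 0.607% of 11036 tested genes passed (0.326% lower and 0.281% higher). Of the 10 members, 6 had enough reads to be tested (Sox7, Sox18, Egfl7, Cdh5, Tek and Ramp2), 0 of them had an unadjusted p under 0.05 (15.3% of all tested genes did), and DESeq2 called 0 as well, with an adjusted p missing for Sox7. The log2 fold change was negative for all 6, and its median was −2.40, against 0.08 over all tested genes, of which 46.3% were negative. Scarce genes enter the test through the group in which they are high, so these counts describe the 6 genes and do not support a difference. Each SE of a log2 difference given here was worked back from the F statistic of the test. On the log2 scale Sox7 differed by −2.79 ± 1.45 (SE, edgeR adjusted p = 0.406), Tek by −3.18 ± 1.75 (adjusted p = 0.441) and Cdh5 by −2.86 ± 1.75 (adjusted p = 0.501). Sox18 differed by −2.01 ± 0.92 (adjusted p = 0.337), Egfl7 by −0.79 ± 0.44 (adjusted p = 0.445) and Ramp2 by −0.42 ± 1.26 (adjusted p = 0.926). Without open neural tube 13 the values were closer to 0: −1.67 for Sox7, −1.41 for Tek, −1.27 for Cdh5, −1.18 for Sox18, −0.33 for Egfl7 and −0.14 for Ramp2 (edgeR adjusted p = 0.578 to 0.971).

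With the separated protrusion left out, Sox7 was lower in attached protrusions than in open neural tubes. Its mean was 0.358 ± 0.212 CPM in attached protrusions (SD, n = 3) and 55.6 ± 57.6 CPM in open neural tubes (SD, n = 4), and the fitted log2 difference was −7.34 ± 1.03 (SE, edgeR adjusted p = 0.0178). It was the only 1 of the 6 tested members to pass; the background was 1.5% of 11466 tested genes, 87 higher and 85 lower (130 and 83 without scaling factors), that is 0.759% higher and 0.741% lower. Unadjusted, 3 members (Sox7, Tek and Egfl7) had a p under 0.05, against 17.7% of tested genes. Sox7, with 3, 6 and 1 reads in attached protrusions 2, 3 and 4, enters this test through the open neural tubes, as does Tek. Nothing is therefore read from the shares given here. The Sox7 call held without open neural tube 13 (−6.26, edgeR adjusted p = 0.0142). It ended without open neural tube 9 or 14 or any 1 attached protrusion (adjusted p = 0.0577 to 0.0886) and with limma-voom (adjusted p = 0.114); over all alternatives the adjusted p ran from 5.63e-14 to 0.114.

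The other members did not pass in attached protrusions. Tek averaged 0.468 ± 0.112 CPM in attached protrusions (SD, n = 3) and 34.8 ± 49.7 CPM in open neural tubes (SD, n = 4), and the fitted log2 difference was −6.32 ± 1.98 (SE, edgeR adjusted p = 0.121); DESeq2 called it with an adjusted p of 0.000523, and over all alternatives the value ran up to 0.338. Without open neural tube 13, Tek averaged 10.9 ± 16.7 CPM in open neural tubes (SD, n = 3) and did not have enough reads to be tested, nor did Cdh5. Egfl7 averaged 38.9 ± 4.02 CPM in attached protrusions (SD, n = 3) and 82.6 ± 44.4 CPM in open neural tubes (SD, n = 4), with −1.20 ± 0.42 (edgeR adjusted p = 0.164). The spread of the open neural tubes was thus as large as their mean for Sox7 and Tek. Cdh5 had −4.71 ± 2.09 (edgeR adjusted p = 0.286), Sox18 −2.41 ± 1.07 (adjusted p = 0.283) and Ramp2 −0.76 ± 1.52 (adjusted p = 0.883). Without open neural tube 13 the log2 difference was −0.78 for Egfl7 (edgeR adjusted p = 0.223), −1.61 for Sox18 (adjusted p = 0.509) and −0.53 for Ramp2 (adjusted p = 0.901). Sox7 and Egfl7 were the 2 members whose attached protrusions all lay below all open neural tubes, an arrangement seen in 6.94% of tested genes. Nothing is read from this share, since Sox7 enters the tested set through the open neural tubes. Over the 8 libraries 0 members were so arranged, against 4.55% of tested genes. Both comparisons share their open neural tubes.

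**Figure D2:**
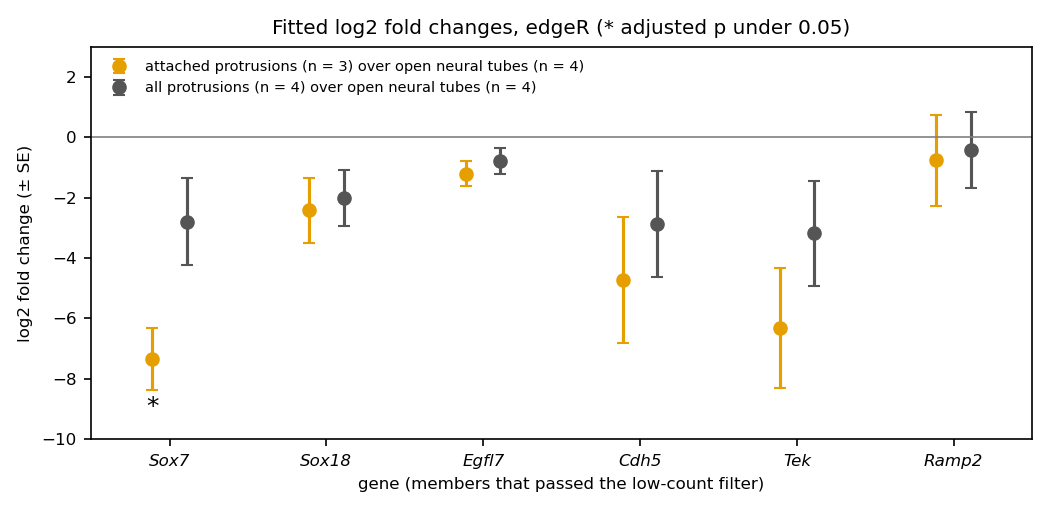
Log2 fold change from edgeR for the 6 members that passed the low-count filter. Attached protrusions over open neural tubes are orange, and all protrusions over open neural tubes are grey. Bars show ± SE, worked back from the F statistic of the test. The star marks Sox7 at −7.34 in attached protrusions, the member with an adjusted p under 0.05; with the separated protrusion included its value is −2.79.

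The separated protrusion held more of the summed 10 members than the attached ones, and other endothelial lists differed in direction. It was above all 3 of them in 8 of the 10 members, and in 6 of the 6 tested members, where 28.1% of all tested genes showed this order. With 0.5 CPM added to both sides, the ratio of its level to the mean of the attached protrusions was 39.5 for Sox7, 16.2 for Tek, 5.80 for Cdh5, 2.25 for Egfl7, 2.14 for Sox18 and 1.86 for Ramp2. Thus 3 of the 6 (Sox7, Tek and Cdh5) were at least 4-fold higher, against 0.852% of 11036 tested genes. Tek and Cdh5 had enough reads to be tested only through the few libraries in which they were high, this one among them, so nothing is read from the shares in this paragraph. The 18 further surface and junction genes summed to 58.6 CPM in the separated protrusion and 107 to 345 CPM in the attached ones, with 7 genes above all 3 of them and 7 below. That sum follows Aplnr, Jam3 and Apln, at 10.5, 23.2 and 3.44 CPM in the separated protrusion. In the attached ones they had 46.6 to 127, 32.6 to 43.0 and 12.0 to 164 CPM, and no other gene of the list exceeded 7.96 CPM. Cd93 and Rasip1, among the 7 genes above, had 7.53 and 7.85 CPM in the separated protrusion and at most 1.20 and 1.66 CPM in the attached ones. They were chosen after their values were seen, as were Jam3 and Apln. The endothelial transcription factors summed to 440 CPM in the separated protrusion and 439 to 875 CPM in the attached ones, and the adrenomedullin genes to 10.5 CPM and 12.7 to 16.5 CPM in the same order. The VEGF list summed to 183 CPM in the separated protrusion and 123 to 150 CPM in the attached ones, and the Tie and angiopoietin list to 22.9 CPM and 2.80 to 6.73 CPM in that order. The Poisson interval for Sox7 in the separated protrusion was 29.0 to 38.3 CPM, far above the upper bounds of 0.670 to 1.26 CPM in the attached ones; such 95% intervals cover counting error only. There is 1 separated protrusion, so the difference has no replicate check. Its neural plate genes also summed to more, with 1058 CPM against 292 to 584 CPM in the attached protrusions, and its mesenchyme genes summed to 556 CPM against 183 to 458 CPM. Whether these tissues have a part in the endothelial values was not tested.

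Open neural tube 13 had the highest level of all 8 libraries in 8 of the 10 members, and in 5 of the 6 tested ones, where 12.7% of tested genes peaked there. The exceptions were Kdr and Ramp2. With 0.5 CPM added, the ratio of its level to the mean of the other 3 open neural tubes was 9.39 for Tek, 7.33 for Cdh5, 5.18 for Sox7, 3.62 for Sox18, 2.28 for Egfl7 and 1.59 for Ramp2. Thus 3 of the 6 tested members (Sox7, Cdh5 and Tek) were at least 4-fold higher, against 6.44% of tested genes. Here too nothing is read from the shares, since Tek and Cdh5 no longer had enough reads to be tested in attached protrusions once open neural tube 13 was left out. The largest ratio belonged to Tek in open neural tube 13 and to Sox7 in the separated protrusion, so the members were not raised in the same proportion in both libraries. For Tek the Poisson interval was 101 to 111 CPM in open neural tube 13 and 26.5 to 34.0 CPM in open neural tube 14, the next highest. The comparison of 1 library with the rest again has no replicate check.

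**Figure D3:**
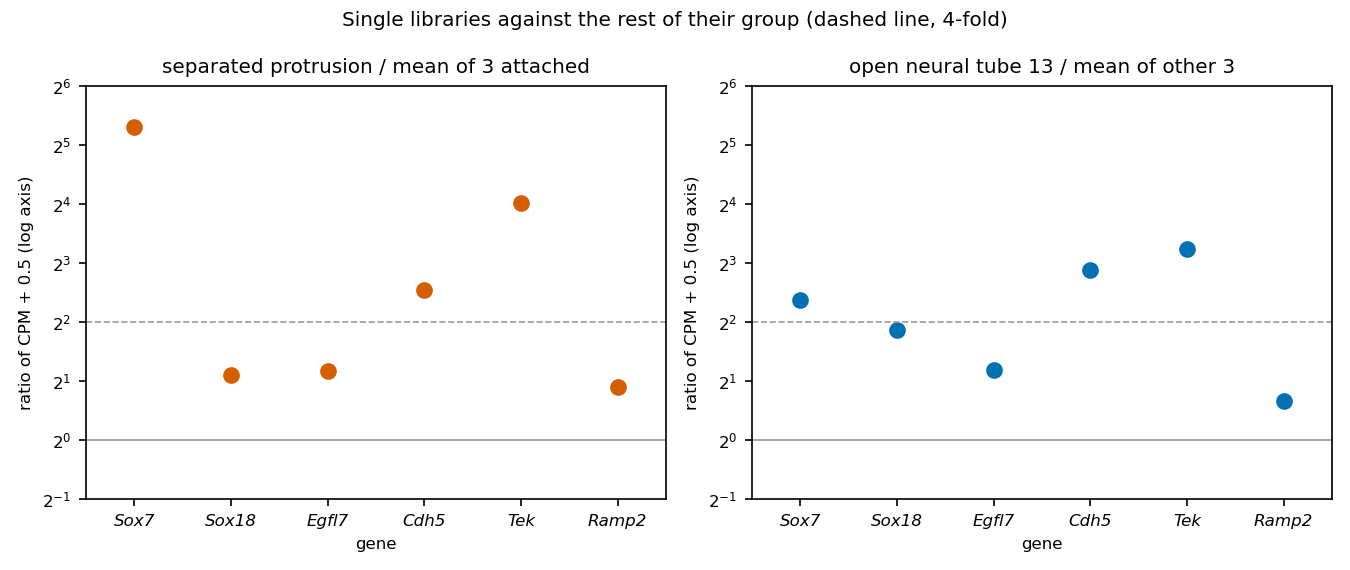
Ratio of CPM + 0.5 (log axis) for the 6 tested members: left, the separated protrusion over the mean of 3 attached protrusions; right, open neural tube 13 over the mean of the other 3 open neural tubes. Sox7, Cdh5 and Tek exceed the dashed 4-fold line in both panels, and Ramp2 is lowest in both.

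Several lists of other tissues were also high in open neural tube 13, while the neural plate list was lowest there. The mesenchyme and pericyte list (12 genes) summed to 1248 CPM in open neural tube 13 against 113 to 282 CPM in the other open neural tubes. Of its 12 genes, 7 were at their highest of all libraries there. Among all tested genes 12.7% peaked there, a share given as description only, since the list also holds untested genes. The list's most abundant member, Pdgfra, a receptor of mesenchyme, had 475 CPM there against 29.9 to 66.0 CPM. The lateral plate, allantois and heart list summed to 95.8 CPM against 0 to 5.82 CPM, with 4 of its 8 listed genes at 0 in every library, the heart factor Nkx2-5 among them, and with Hand1, a factor of lateral and extraembryonic mesoderm, at 69.6 CPM in open neural tube 13 and 0 CPM in the other open neural tubes. The primitive erythroid list summed to 1039 CPM in open neural tube 13 and to 67.4 to 1071 CPM in the others, the top value being that of open neural tube 14; 3 of its 15 genes (Hbb-y, Hba-a2 and Hbb-b1, all globins) were at 0 in every library. The surface ectoderm and epithelium list summed to 324 CPM in open neural tube 13 and 52.9 to 80.8 CPM in the other open neural tubes. Of its 7 genes, 4 were above all of these and 1 was below. The part of these tissues in the endothelial values was not tested.

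Erythroid genes did not follow the endothelial ones in every library. Hba-x, the embryonic zeta globin, stood at 1.31 CPM in the separated protrusion, 0.430, 0.437 and 45.0 CPM in attached protrusions 2, 3 and 4, and 61.6, 1.06, 891 and 994 CPM in open neural tubes 9, 10, 13 and 14 (chosen after its values were seen). It was near 0 in the separated protrusion, where Sox7 and Tek were well detected. Macrophage markers were scarce, with Csf1r and Aif1 at 0 in every library and 0 genes tested: the 7 genes summed to 0.430 to 2.29 CPM in protrusions and 0 to 6.62 CPM in open neural tubes. Of 6 hematopoietic progenitor genes 5 were listed, 2 were tested and 0 passed. The sum was 141 CPM in the separated protrusion, 49.9 to 98.4 CPM in the attached ones and 80.6 to 138 CPM in open neural tubes. Kit alone had 134, 45.2 to 83.5 and 72.6 to 131 CPM in the same order, so the sum mostly follows Kit. Of the erythroid list, Slc25a37, the mitochondrial iron importer, fell, with 15.2 ± 1.02 CPM in attached protrusions (SD, n = 3) and 46.2 ± 9.50 CPM in open neural tubes (SD, n = 4; log2 −1.69 ± 0.32, edgeR adjusted p = 0.0444).

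**Figure D4:**
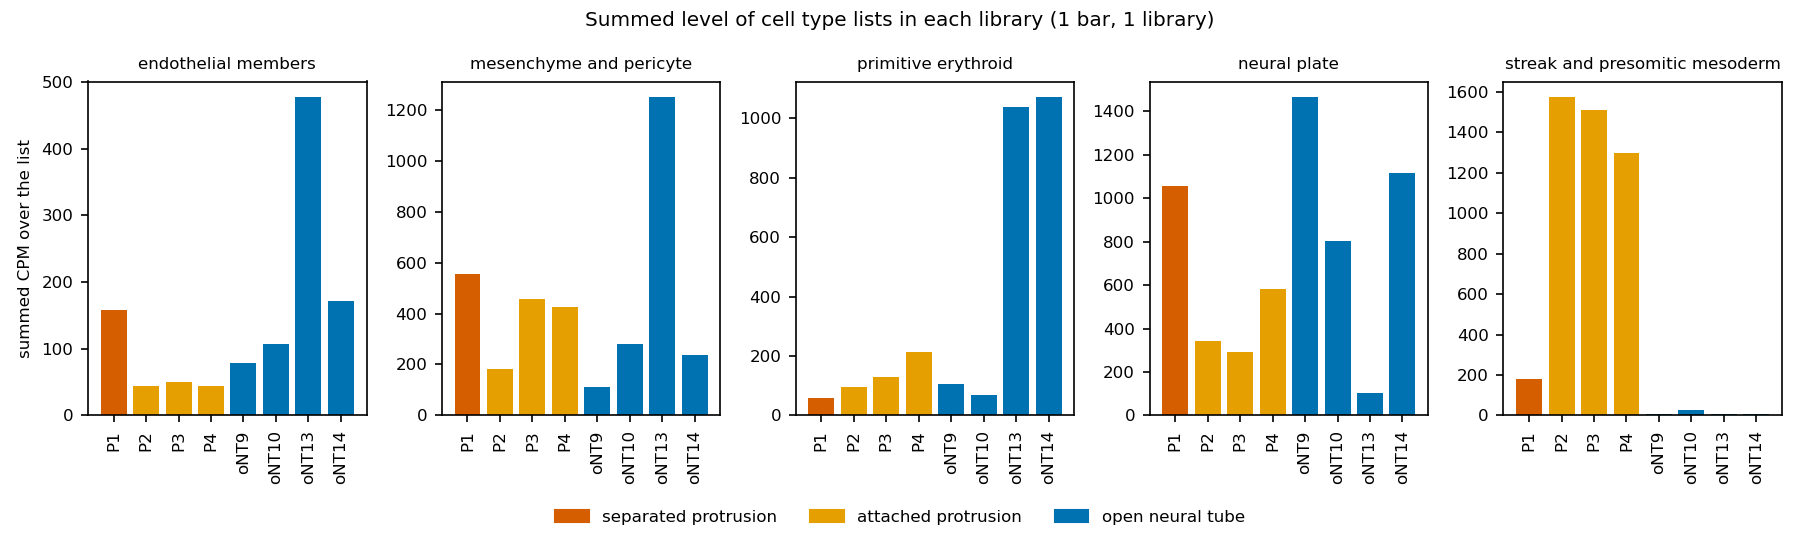
Summed CPM over 5 gene lists in each library (1 bar a library, axis from 0, separate scales), with protrusions left and open neural tubes right. Open neural tube 13 is highest for endothelial members (477 CPM) and mesenchyme (1248 CPM) and lowest for neural plate genes (103 CPM). The separated protrusion lies within the range of the open neural tubes in the endothelial and neural plate lists. In the streak list its 179 CPM lies between the open neural tubes (4.94 to 27.5 CPM) and the attached protrusions (1300 to 1573 CPM).

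The other genes of the pathways around these members were counted from lists. Of the VEGF ligands and receptors, 7 of 8 genes were tested and 0 passed in either comparison (median log2 fold change −0.65 in attached protrusions); the receptor Flt1 was at 0 in all open neural tubes and at most 0.491 CPM in protrusions, like Kdr (chosen after its values were seen, as were Erg and Acvrl1 below). Vegfb, the most abundant of them, had 94.6 ± 20.1 CPM in attached protrusions (SD, n = 3) and 41.8 ± 27.7 CPM in open neural tubes (SD, n = 4; log2 1.10 ± 0.52, edgeR adjusted p = 0.320). Nrp1, the VEGF co-receptor that also binds semaphorins, had 27.0 CPM in the separated protrusion, 3.01, 6.04 and 6.73 CPM in attached protrusions 2, 3 and 4, and 38.2, 6.88, 247 and 43.2 CPM in open neural tubes 9, 10, 13 and 14. Like Tek, it peaked in open neural tube 13 and was low in all attached protrusions and in open neural tube 10. Nrp1 is named because it was among the 10 genes most like the members, described below. Its likeness to Tek therefore follows in part from how it was chosen.

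In the Tie and angiopoietin list 4 of 5 genes were tested in attached protrusions and 0 passed, with a median of −2.83. Angpt1, the activating ligand of Tek, had 10.3 CPM in the separated protrusion, 0.574, 0.175 and 0.120 CPM in attached protrusions 2, 3 and 4, and 6.22, 0, 13.6 and 12.5 CPM in open neural tubes 9, 10, 13 and 14 (log2 −4.86 ± 1.90 in attached protrusions, edgeR adjusted p = 0.22). Ligand and receptor were thus both lowest or undetected in the attached protrusions and open neural tube 10. Among endothelial transcription factors 11 of 18 were tested and 0 passed (median 0.54). Ets2, the most abundant, had 253 ± 118 CPM in attached protrusions (SD, n = 3) and 90.6 ± 51.4 CPM in open neural tubes (SD, n = 4; log2 1.38 ± 0.47, edgeR adjusted p = 0.155), and Erg, a classical endothelial factor, was at 0 in all 8 libraries.

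Of 18 further surface and junction genes, 7 were tested in attached protrusions and 0 passed (median 0.31). The apelin receptor gene Aplnr, the most abundant, had 75.7 ± 44.4 CPM in attached protrusions (SD, n = 3) and 22.4 ± 17.3 CPM in open neural tubes (SD, n = 4; log2 1.61 ± 0.68, edgeR adjusted p = 0.262). Around Eng, 11 of 16 genes of BMP and TGF-β signalling were tested and 0 passed (median 0.49); its partner receptor Acvrl1 had 0 CPM in all libraries but attached protrusion 3 (0.263 CPM), and the target Id3 had 278 ± 243 CPM in attached protrusions against 694 ± 239 CPM in open neural tubes (SD, n = 3 and n = 4; edgeR adjusted p = 0.177). Around Ramp2, 3 of 4 genes were tested in attached protrusions and 0 passed; Calcrl, its receptor, had 5.47 ± 3.08 CPM in attached protrusions and 11.1 ± 20.2 CPM in open neural tubes (SD, n = 3 and n = 4), where the mean rests on 41.4 CPM in open neural tube 13. Of 11 arterial and venous genes 8 were tested in attached protrusions and 0 passed (median 0.20), with Notch1 at 179 ± 62.8 CPM in attached protrusions and 78.7 ± 33.8 CPM in open neural tubes (SD, n = 3 and n = 4; edgeR adjusted p = 0.152).

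Genes on lists of other tissues also passed in attached protrusions. Of the neural plate list, 3 of 11 tested genes fell (Sox1, Zic1 and Dbx1), against 0.741% of all tested genes. The median was −2.51, against 0.09 over all tested genes. Sox1, a factor of neural progenitors, had 5.66 ± 1.47 CPM in attached protrusions (SD, n = 3) and 73.0 ± 39.8 CPM in open neural tubes (SD, n = 4; log2 −3.78 ± 0.65, edgeR adjusted p = 0.0350), and 108 CPM in the separated protrusion. Sox1 and Sox7 therefore both stood high in the separated protrusion and low in the attached ones, but Sox1 was lowest of the open neural tubes in number 13 (15.3 CPM), where Sox7 was highest. Of the streak and presomitic mesoderm list, 5 of 9 tested genes rose in attached protrusions, against 0.759% of all tested genes. Genes scarce in 1 group enter the test through the other, so these shares are a description. Dll3, a Notch ligand of presomitic mesoderm, had 320 ± 69.1 CPM in attached protrusions and 1.42 ± 0.71 CPM in open neural tubes (SD, n = 3 and n = 4, edgeR adjusted p = 0.000565). Tbx6, a factor of presomitic mesoderm, had 242 ± 73.3 CPM in attached protrusions and 0.583 ± 0.555 CPM in open neural tubes (SD, n = 3 and n = 4, edgeR adjusted p = 0.00117). Cdx2 had 246 ± 64.1 CPM in attached protrusions and 1.96 ± 1.67 CPM in open neural tubes (SD, n = 3 and n = 4, edgeR adjusted p = 0.00406). In the mesenchyme list 10 of 12 genes, in the surface ectoderm list 6 of 7 and in the lateral plate list 2 of 8 were tested in attached protrusions, and 0 passed in any of the 3. Cdh1, the most abundant of the surface ectoderm list, had 334 ± 465 CPM in attached protrusions (SD, n = 3). In open neural tubes it had 24.7 ± 12.6 CPM (SD, n = 4, edgeR adjusted p = 0.0785).

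The members also resembled each other to different degrees. Over the 8 libraries, the log2 CPM of Egfl7 correlated with the mean standardized profile of the other 5 tested members at r = 0.997, that of Tek at 0.90, Sox7 at 0.79, Cdh5 at 0.76, Sox18 at 0.57 and Ramp2 at 0.29. Sox7 and Sox18 correlated at 0.74. These are descriptions over 8 libraries that share 1 steep library, open neural tube 13, and differ in complexity. Egfl7 thus followed the average order of the libraries most closely, and it spanned 35.8 to 143 CPM.

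Outside the members, 10 tested genes had the profile most like their mean, with r from 0.92 to 0.96 over 8 libraries. They were Cep120, Itga9, Mest, C85492, Il11ra1, Kirrel, Epha7, Luzp1, Spg20 and Nrp1. Itga9, an integrin subunit, had 44.0 CPM in the separated protrusion, 5.74, 15.1 and 11.7 CPM in attached protrusions 2, 3 and 4, and 11.1, 19.4, 225 and 60.5 CPM in open neural tubes 9, 10, 13 and 14. Mest, an imprinted gene of embryonic mesoderm, had 3004 CPM in the separated protrusion, 1334, 653 and 1170 CPM in the attached ones, and 1657, 1877, 10400 and 2979 CPM in open neural tubes 9, 10, 13 and 14. Both had the separated protrusion above all attached ones and open neural tube 13 on top. The members' mean profile has this order, and the genes were picked for likeness to it, so it is no separate observation. Epha7, an ephrin receptor, had 29.4 CPM in the separated protrusion, 6.47 to 9.32 CPM in the attached ones and 15.3 to 115 CPM in open neural tubes. Of these 10 genes, Nrp1 was the 1 that also stood on a list of the VEGF pathway.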

How the data were processed

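The authors deposited whole-number counts of SAGE tags per gene symbol, 1 file per library, with no normalization, per the file headers and values. Per the labels' protocols, each SOLiD SAGE library was made from 7 to 12 ng of total RNA of laser-cut tissue. Build mm9 is named in the submitters' processing notes. The aligner, the assignment of tags to genes and the handling of strand: not given in the sources used here. PCR copies cannot be told from separate molecules, so intervals and floors (3 reads) cover counting error only.

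Groups follow the source names and morphology labels; open neural tube numbers come from the titles and protrusion numbers from the order of listing. CPM, computed here, is the count over the library total. Tests used R 4.3.3 and edgeR 4.0.16: filterByExpr (minimum count 10), TMM, robust quasi-likelihood F test, 2-sided, Benjamini-Hochberg adjustment over all tested genes, threshold 0.05. This edgeR test returns no SE. The SE printed is the size of the log2 difference over the square root of its F statistic. Log2 CPM profiles used a prior count of 2. DESeq2 1.42.0 and limma 3.58.1 were alternatives. The fit was tested on simulated data, with changes set in well-counted genes. For attached protrusions it called 36% of 4-fold and 66% of 16-fold changes. For all protrusions these shares were 34% and 68%. A gene that did not pass may therefore still differ. Checked pairwise, libraries had, over genes with at least 20 reads in the pair, at most 1.01% equal counts, so none was treated as a repeat. Named genes are all members, from each other list up to 3 genes past the threshold or else the most abundant, and the 10 genes most like the members. Further genes, such as Jam3, Apln, Cd93, Rasip1 and those at 0 in every library, were chosen after their values were seen. The members and lists were chosen with earlier results of these data known.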

Additional observations from a re-analysis of the deposited data

Results flagged for a closer look

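In groups of 4 libraries, a value was picked out when its gap to the next library exceeded Dixon's 95% critical share of the group's range. The rule was applied to 22 such groups. By chance it picks about 1 in 20 groups where values are normally spread. CPM of scarce genes with zeros is not so spread, so the chance rate here is not known. Of the 8 values so found, 6 were those of the separated protrusion, highest among protrusions: Sox7 at 33.4 CPM, Egfl7 at 88.2 CPM, Cdh5 at 4.74 CPM, Pecam1 at 4.25 CPM, Tek at 15.2 CPM and the sum of the 10 members at 159 CPM. The other 2 were those of open neural tube 13, highest among open neural tubes: Sox7 at 142 CPM and Eng at 1.74 CPM. The values share libraries, and the genes and both libraries were chosen with these data known, so the number found is not set against chance. Zeros decide some of them: Eng had 0 reads in the other 3 open neural tubes, and Pecam1 had 0, 1 and 0 reads in the attached protrusions.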

How the results depend on the processing

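For all protrusions against open neural tubes, the 67 genes past the threshold became 103 with upper-quartile factors, 133 with a filter of 20 CPM, 795 with DESeq2, 370 with limma-voom, 189 with limma-voom and sample weights, and 211 when the separated protrusion was dropped together with open neural tube 13; leaving out 1 library gave 1 (without open neural tube 9) to 172 (without the separated protrusion). The members past it numbered 0, but 1 (Sox7) with sample weights (adjusted p = 0.0340) and 1 with both libraries left out, and 0 to 1 with 1 library left out. For attached protrusions, 172 genes became 425 with the filter of 20 CPM, 1111 with DESeq2, 869 with limma-voom and 1012 with sample weights, and 10 to 211 with 1 library left out. The 1 member became 2 with DESeq2, 0 with limma-voom and 0 to 1 with 1 library left out. Leaving out scaling factors moved the median log2 fold change of all genes to 0.19 for attached protrusions, against 0.09. Ramp2 turned to 0.36 for all protrusions and 0.17 for attached ones with limma-voom. The cause of these changes was not tested. All other alternatives kept the direction of Sox7, Sox18, Egfl7, Cdh5 and Tek wherever those genes could be tested; Sox7 ranged from −7.63 to −6.26 in attached protrusions. No paired analysis was made, because the labels do not say which libraries, if any, come from the same embryo. At 3 reads, levels under 0.180 to 0.529 CPM were not detectable, which covers Kdr in every library.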
